A study of Mus musculus with 6 samples.

Results

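The tumour necrosis factor (TNF) superfamily was examined in skin of mice with alopecia areata, an autoimmune hair loss in which lymphocytes gather around growing hair follicles. Its genes were taken by name: every gene whose only symbol in the platform's probe table starts with Tnfsf, for a ligand, or Tnfrsf, for a receptor. This gave 27 of the 18193 genes measured, namely 7 ligands, 19 receptors and 1 antisense RNA, Tnfsf13os, which is neither ligand nor receptor and is named for its place beside a ligand gene. They were covered by 46 probe sets, and 1 probe set per gene, that with the highest mean over all arrays, was used. The study compared affected alopecic skin from 3 mice of the inbred strain C3H/HeJ with Alopecia Areata and skin from 3 unaffected mice of the same strain. Each mouse gave 1 array of total RNA, and the series title calls the disease spontaneous. The labels name no age, sex, body site, treatment or engineered allele for either group.

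TNF superfamily ligands are mostly membrane proteins that act as trimers, on the cell surface or after being shed. Their receptors either carry a death domain, through which they can start apoptosis, or bind TRAF adaptor proteins and activate the transcription factor NF-kappa-B, and some receptors do both. Many members act as costimulators between T cells and antigen-presenting cells, and others, such as ectodysplasin and its receptor Edar, are known for their part in forming hair follicles.

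All values are log2 signals computed by the authors with RMA, and a difference is alopecic minus unaffected on that scale. The array medians lay between 6.11 and 6.17, and 15 of the 27 members had a mean below 6.11. Signals that dim have compressed differences, so their folds are not exact ratios. Keratinocyte markers were bright, as the label skin implies, with a mean over 8 genes of 12.79 to 13.32 in the alopecic and 13.00 to 13.23 in the unaffected arrays. Unaffected replicate 3 stood apart: its mean over 11 measured markers of the hair shaft and inner root sheath was 5.25, against 13.09 and 13.78 in the other unaffected arrays and 11.28 to 12.03 in the alopecic arrays. Results without this array are given for the counts, the median difference of the members, Tnfsf10 and Tnfrsf12a. Other members also moved without it, such as Tnfrsf9 from 0.79 to 0.90 and Tnfrsf1b from 1.06 to 0.88. Genes of the marker and pathway lists are not given without it. T cell markers differed with the groups, with a mean over 10 genes of 8.002, 7.02 and 6.92 in alopecic and 6.08, 6.10 and 6.22 in unaffected replicates 1, 2 and 3. In whole skin, more cells of a type and more RNA per cell cannot be told apart.

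In alopecic skin 21 of the 27 members had a higher mean and 6 a lower mean, with a median log2 difference of 0.21 beside -0.01 over all genes, of which 8839 of 18193 had a higher mean. The median was 0.13 without alopecic replicate 1, 0.14 without unaffected replicate 3 and 0.13 with the mean of each gene's probe sets. By limma with Benjamini-Hochberg adjustment over all genes, 0 of the 27 passed the threshold of 0.05, where 50 of all genes, or 0.275%, did (smallest adjusted p of a member 0.138). At an unadjusted limma p under 0.05, 7 members were higher, where 4.80% of all genes were, and 0 were lower, where 2.35% were. The count of lower members became 2 when unaffected replicate 1 was left out, and 1 when alopecic replicate 1 or unaffected replicate 3 was or when probe sets were averaged per gene. The 7 higher members were the ligand Tnfsf10 and the receptors Tnfrsf1b, Tnfrsf4, Tnfrsf9, Tnfrsf14, Tnfrsf18 and Tnfrsf25. In 8 members, these and the ligand Tnfsf11, every alopecic array lay above every unaffected array, and in 1, Tnfrsf21, every alopecic array lay below. Over all genes the groups did not overlap in 6.93% with alopecic higher and in 6.12% with alopecic lower. The count of members past the adjusted threshold was 1 without unaffected replicate 3, where Tnfsf10 passed, and 3 with arrays weighted by their scatter, where Tnfsf10, Tnfrsf9 and Tnfrsf18 passed. Beside these, 39 and 139 of all genes passed. With each array left out in turn the count over all genes ran from 4, without unaffected replicate 2, to 39.

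**Figure D1:**
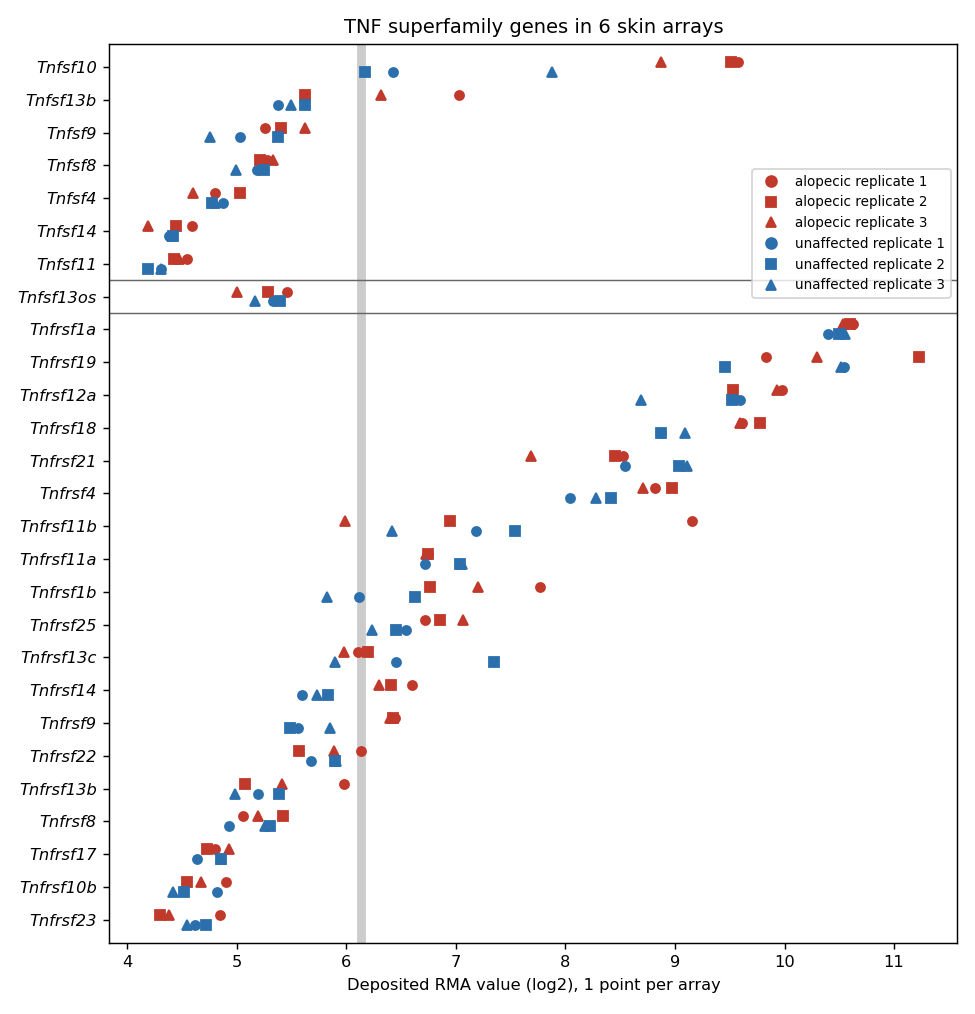
Deposited log2 RMA values (horizontal axis) of the 27 genes in each of the 6 arrays, ligands at the top, Tnfsf13os below them and receptors at the bottom; symbols mark replicates, colours mark groups and the grey band spans the array medians of 6.11 to 6.17. The alopecic points of Tnfsf10, at 8.87 to 9.58, lie clear of the unaffected points, at 6.17 to 7.88, while most ligands lie left of the band in both groups.

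The ligand with the largest difference was Tnfsf10, which encodes TRAIL, a ligand that can start apoptosis through death receptors. Its values were 9.58, 9.51 and 8.87 in alopecic replicates 1, 2 and 3 and 6.42, 6.17 and 7.88 in unaffected replicates 1, 2 and 3. All alopecic arrays were above all unaffected arrays, and unaffected replicate 3, the array with few hair transcripts, was the highest of its group. The means were 9.32 ± 0.39 and 6.82 ± 0.92 (SD, n = 3 each), a difference of 2.49 (SE 0.49), or 5.64-fold, which missed the threshold (limma adjusted p = 0.237; unadjusted 95% interval 1.29 to 3.70). Without unaffected replicate 3 the difference was 3.02 (SE 0.25), or 8.12-fold, and passed (limma adjusted p = 0.0332). With array weights it was 2.69 (limma adjusted p = 0.0226). Over all 14 alternatives the difference ran from 2.17 to 3.02 and the adjusted p from 0.0226 to 0.791.

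TRAIL was measured by 3 probe sets, and all of them separated the groups. A second probe set read 9.48, 9.20 and 8.68 in alopecic and 5.81, 5.98 and 7.45 in unaffected skin, a difference of 2.70 (SE 0.48). The third read 7.26, 7.04 and 6.59 against 4.65, 5.57 and 5.76, a difference of 1.64 (SE 0.34). The receptors that bind TRAIL had smaller differences, none of which passed. Tnfrsf10b, its death receptor in mice, had a difference of 0.12 (SE 0.16, unadjusted 95% interval -0.28 to 0.52), and the decoy receptors Tnfrsf22 and Tnfrsf23 had 0.04 (SE 0.17) and -0.12 (SE 0.17). All 3 lay below the array medians on average. Tnfrsf11b, or osteoprotegerin, a secreted decoy for TRAIL and for Tnfsf11, had 9.15, 6.94 and 5.99 in alopecic and 7.18, 7.54 and 6.42 in unaffected skin. Its alopecic arrays spanned the whole unaffected range.

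Tnfsf13b encodes BAFF, a survival factor for B cells that myeloid cells and activated lymphocytes release. It had 7.03, 5.62 and 6.31 in alopecic and 5.37, 5.62 and 5.49 in unaffected skin, so that replicates 1 and 3 were high and alopecic replicate 2 was level with the unaffected arrays. The mean over all arrays, 5.91, lay below the array medians. The difference was 0.83 (SE 0.35, limma adjusted p = 0.736), 1.18 without alopecic replicate 2 and 0.47 without alopecic replicate 1. The macrophage marker list took the same order over the alopecic arrays, with means over 10 genes of 9.86, 7.996 and 9.12, and spanned 7.63 to 9.12 in unaffected skin; its part in the BAFF values was not tested. Of 10 macrophage genes 0 passed the limma test, and 0 had an unadjusted p under 0.05. The other probe sets of Tnfsf13b differed by 0.09 and 0.02.

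BAFF and its relative APRIL share a small group of receptors on B lineage cells. Tnfrsf13c, the BAFF receptor of B cells, had a difference of -0.47 (SE 0.37), Tnfrsf13b, or TACI, 0.30 (SE 0.26), and Tnfrsf17, the plasma cell receptor BCMA, 0.04 (SE 0.12), and none passed. The means of Tnfrsf13b and Tnfrsf17 over all arrays, 5.34 and 4.80, lay below the array medians. Unaffected replicate 2 had the highest Tnfrsf13c value, 7.35, against 5.90 to 6.45 in the other unaffected and 5.98 to 6.20 in the alopecic arrays. Of 7 measured B and plasma cell markers 0 passed the test. Only Jchain was higher at an unadjusted limma p under 0.05, beside 4.80% of all genes. The order in which the markers are named here was chosen after their values were seen. Jchain, which joins antibody chains in plasma cells, had 10.35, 9.76 and 8.03 in alopecic and 4.79, 7.51 and 4.90 in unaffected skin. The groups did not overlap, and the difference of 3.65 (SE 0.94), or 12.5-fold, missed the threshold (limma adjusted p = 0.454). The B cell markers Ms4a1, Cd79a and Pax5 stayed below 5 in every array and differed by -0.15, -0.03 and -0.13. Cd79b and Cd22 went the other way, by 0.28 (SE 0.22) and 0.29 (SE 0.20). Their highest values, 5.15 and 6.21, were in alopecic replicate 1. Sdc1, the remaining marker, differed by 0.43 (SE 0.18). The part of B and plasma cells in the values of BAFF and its receptors was not tested.

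The remaining ligands were dim in both groups, with all 5 means below the array medians. Tnfsf9, the ligand of CD137, differed by 0.38 (SE 0.20), Tnfsf11, or RANKL, which drives osteoclast formation, by 0.21 (SE 0.10), Tnfsf8, the CD30 ligand, by 0.13 (SE 0.11), Tnfsf14, or LIGHT, by 0.01 (SE 0.13) and Tnfsf4, the OX40 ligand, by -0.01 (SE 0.14). Tnfsf11 lay between 4.42 and 4.54 in alopecic and between 4.19 and 4.31 in unaffected skin, and its groups did not overlap. A second probe set of it read the other way, at -0.16 (SE 0.21). A second probe set of Tnfsf14 differed by 0.36 (SE 0.12), and its groups did not overlap. The antisense RNA Tnfsf13os differed by -0.05 (SE 0.15).

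**Figure D2:**
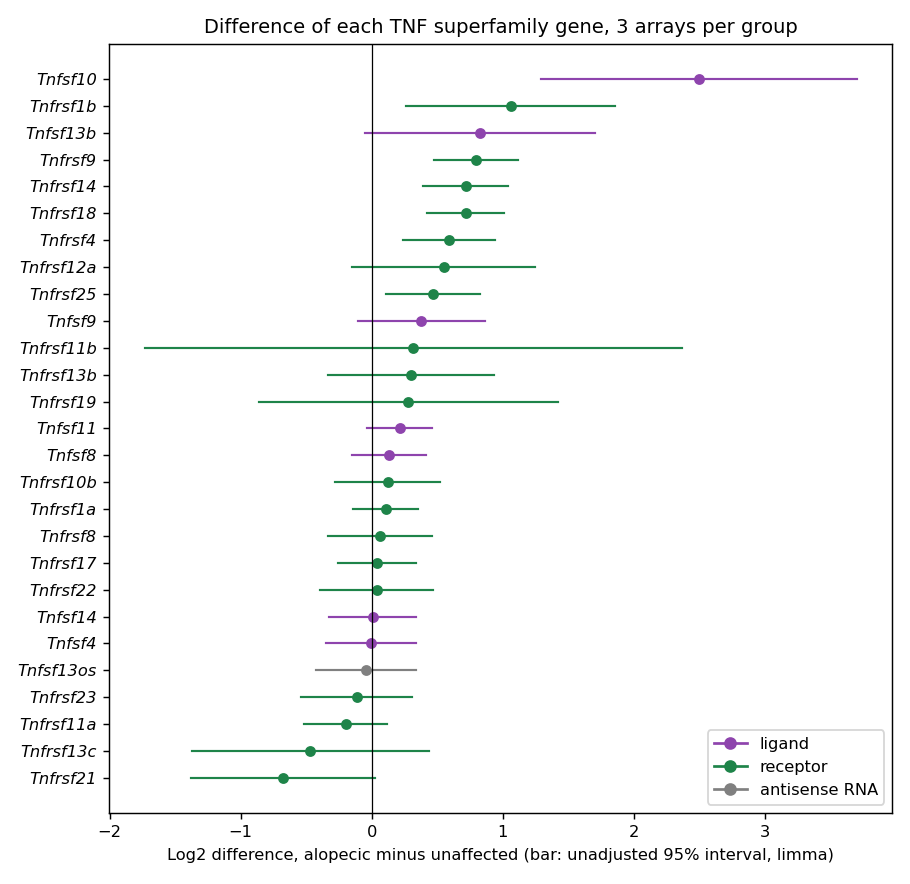
Log2 difference, alopecic minus unaffected, of each of the 27 genes (horizontal axis), with bars for the unadjusted 95% interval of the limma fit over 3 arrays per group and colours for ligands, receptors and the antisense RNA. The intervals of 7 genes lie above 0, led by Tnfsf10 at 2.49, and that of Tnfrsf11b is the widest, from -1.73 to 2.36.

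Among receptors, 6 of 19 were higher at an unadjusted limma p under 0.05, beside 4.80% of all genes. Several of the 6 are receptors through which T cells receive costimulation. Tnfrsf9 encodes CD137, a receptor that appears on activated T cells. It had 6.45, 6.42 and 6.40 in alopecic and 5.56, 5.48 and 5.85 in unaffected skin, without overlap and with alopecic arrays nearly level. The difference was 0.79 (SE 0.13), or 1.73-fold (limma adjusted p = 0.138, and 0.0156 with array weights). Its mean over all arrays, 6.03, lay below the array medians. Of its 2 other probe sets, both below 5 in every array, 1 differed by 0.62 (SE 0.17) and 1 by -0.01 (SE 0.12), and the mean of all 3 by 0.47.

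Tnfrsf18, or GITR, and Tnfrsf4, or OX40, are costimulatory receptors of activated and regulatory T cells. Tnfrsf18 had 9.62, 9.77 and 9.59 in alopecic and 8.87, 8.87 and 9.09 in unaffected skin, with a clear gap between the groups. The means were 9.66 ± 0.10 and 8.95 ± 0.13 (SD, n = 3 each), a difference of 0.71 (SE 0.12), or 1.64-fold (limma adjusted p = 0.147, and 0.0307 with array weights). Tnfrsf4 had 8.82, 8.98 and 8.71 in alopecic and 8.04, 8.41 and 8.28 in unaffected skin. Its groups did not overlap, and the difference was 0.59 (SE 0.14), or 1.51-fold (limma adjusted p = 0.397). The lineage factor of regulatory T cells, Foxp3, stayed below 5 in every array with a difference of 0.21 (SE 0.10). Of the 5 measured regulatory T cell markers 0 passed and 2 were higher at an unadjusted limma p under 0.05, beside 4.80% of all genes. The 5 had a mean of 6.39 to 6.82 in alopecic and 6.04 to 6.09 in unaffected arrays. The part of regulatory T cells in the receptor values was not tested.

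Tnfrsf14, or HVEM, a receptor for LIGHT and lymphotoxin alpha that also binds the inhibitory receptor BTLA, had 6.60, 6.41 and 6.30 in alopecic and 5.59, 5.83 and 5.73 in unaffected skin. The groups did not overlap, and the difference was 0.71 (SE 0.13), or 1.64-fold (limma adjusted p = 0.186). The mean of Tnfrsf14 over all arrays, 6.08, lay below the array medians. Tnfrsf25, or DR3, a death domain receptor of T cells, had 6.71, 6.86 and 7.06 against 6.55, 6.45 and 6.23, a difference of 0.47 (SE 0.15, limma adjusted p = 0.575). The lowest alopecic array of Tnfrsf25 lay just above the highest unaffected one.

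TNF itself binds 2 receptors. Tnfrsf1b, or TNFR2, which is found mainly on leukocytes and endothelium, had 7.77, 6.76 and 7.21 in alopecic and 6.11, 6.63 and 5.82 in unaffected skin. Alopecic replicate 2 was close to unaffected replicate 2, and the groups did not overlap. The difference was 1.06 (SE 0.32), or 2.08-fold (limma adjusted p = 0.554). A second probe set of Tnfrsf1b, between 6.34 and 6.60 in all arrays, differed by -0.07 (SE 0.11), and the mean of both by 0.49, so the difference rests on 1 of 2 probe sets. Tnfrsf1a, or TNFR1, the broadly expressed death domain receptor, had 10.63, 10.59 and 10.54 in alopecic and 10.40, 10.50 and 10.55 in unaffected skin. Its range over all arrays, 0.229, was the smallest of the 27 genes, and its difference was 0.10 (SE 0.10, unadjusted 95% interval -0.14 to 0.35). The ligand Tnf differed by 0.09 (SE 0.29). Whether these receptors differed from each other was not tested.

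**Figure D3:**
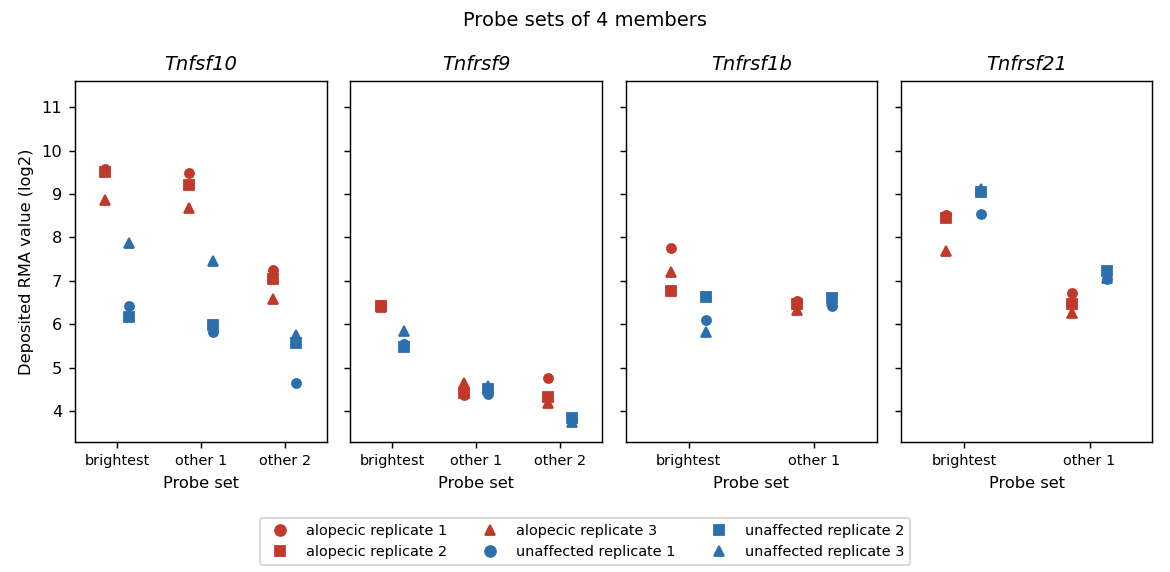
Deposited log2 RMA values (vertical axis) in 6 arrays for each probe set of Tnfsf10, Tnfrsf9, Tnfrsf1b and Tnfrsf21, ordered from the brightest to the dimmest, with colours for groups and symbols for replicates. All 3 probe sets of Tnfsf10 and both of Tnfrsf21 separate the groups, while the second probe set of Tnfrsf1b has both groups between 6.34 and 6.60.

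The receptor with the largest lower value was Tnfrsf21, or DR6, a death domain receptor also expressed in epithelia and neurons. It had 8.53, 8.45 and 7.68 in alopecic and 8.54, 9.04 and 9.11 in unaffected skin, with alopecic replicate 1 and unaffected replicate 1 almost level. The difference was -0.68 (SE 0.28, limma adjusted p = 0.725), and -0.41 without alopecic replicate 3. Its second probe set had 6.72, 6.46 and 6.27 against 7.04, 7.23 and 7.07, without overlap, with a difference of -0.63 (SE 0.15). Tnfrsf12a, or Fn14, the receptor of TWEAK, which injured and growing tissue expresses, had 9.98, 9.53 and 9.93 in alopecic and 9.59, 9.52 and 8.69 in unaffected skin. The groups overlapped, and the difference of 0.55 (SE 0.28) was 0.26 without unaffected replicate 3, the lowest array.

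Tnfrsf19, or Troy, a receptor expressed in developing hair follicles and a Wnt target, had 9.83, 11.23 and 10.30 in alopecic and 10.55, 9.45 and 10.52 in unaffected skin. The groups overlapped, with a difference of 0.28 (SE 0.46, limma adjusted p = 0.925). This difference turned to -0.11 without alopecic replicate 2 and to -0.08 without unaffected replicate 2. As the mean of the 3 probe sets of Tnfrsf19 it was -0.05. In unaffected replicate 3, where hair shaft markers were far lower than in the other arrays, Tnfrsf19 had 10.52, within the range of those arrays. Tnfrsf11a, or RANK, the receptor of RANKL, differed by -0.20 (SE 0.13), and Tnfrsf8, or CD30, by 0.06 (SE 0.16). For neither did the values of the groups separate.

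The 6 receptors with an unadjusted p under 0.05 lie on the same chromosome, a pattern noticed after their values were seen. In the RefSeq annotation of GRCm38.p6, 7 of the 19 receptors lie on chromosome 4, Tnfrsf1b beside Tnfrsf8 and Tnfrsf4 beside Tnfrsf18 among them. All of these but Tnfrsf8 had an unadjusted limma p under 0.05, and 0 of the 12 receptors elsewhere had. The median difference was 0.71 over the 7 and 0.07 over the 12. Mean values of the 7 ran from 7.21 to 7.29 in alopecic and from 6.52 to 6.71 in unaffected arrays. The 1095 measured genes of chromosome 4 had a median of 0.00, and 4.20% were higher at an unadjusted p under 0.05, beside 4.80% of all genes. The 9 measured neighbours that are not members differed by -0.95 (Per3, beside Tnfrsf9) to 0.04 (Sdf4, beside Tnfrsf4), and 0 of them had an unadjusted limma p under 0.05 or passed the adjusted test. Their standard errors reached 0.66, for Per3.

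The promoters of these members are shown because several of them were higher together. RefSeq windows of GRCm38.p6, from 250 bases before to 50 after an annotated start, were held for 21 of the 27 members, in 25 windows; they are of the C57BL/6J genome, not of C3H/HeJ. Both strands were searched for GAAANNGAAA, the core of the interferon-stimulated response element (ISRE), for TTCNNNGAA, the core of the gamma-activated site (GAS) that STAT dimers bind, and for the NF-kappa-B consensus. The ISRE core was found in 4 of the 25 windows, beside 3.44% of 32850 windows of all genes, the GAS core in 6, beside 8.30%, and the NF-kappa-B consensus in 2, beside 4.51%. Among the 7 members with an unadjusted p under 0.05 the ISRE core was found in 2, Tnfrsf1b and Tnfrsf14, the GAS core in 4, Tnfrsf1b, Tnfrsf9, Tnfrsf18 and Tnfrsf25, and the NF-kappa-B consensus in 1, Tnfrsf9. These counts are of genes, and Tnfrsf9 and Tnfrsf25 had 2 windows each, so the shares of windows do not apply to them directly. The windows of Tnfsf10, Tnfrsf1b, Tnfrsf14, Tnfrsf18 and Tnfrsf4 and both windows of Tnfrsf9 follow, with matches in capitals:
Tnfsf10 chr3:27316827-27317126 (plus strand): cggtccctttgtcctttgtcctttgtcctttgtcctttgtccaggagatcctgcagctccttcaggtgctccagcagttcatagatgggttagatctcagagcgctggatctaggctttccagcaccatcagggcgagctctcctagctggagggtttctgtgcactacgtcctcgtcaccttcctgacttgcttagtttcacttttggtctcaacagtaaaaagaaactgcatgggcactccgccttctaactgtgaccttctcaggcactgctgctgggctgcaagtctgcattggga
Tnfrsf1b chr4:145246821-145247120 (minus strand): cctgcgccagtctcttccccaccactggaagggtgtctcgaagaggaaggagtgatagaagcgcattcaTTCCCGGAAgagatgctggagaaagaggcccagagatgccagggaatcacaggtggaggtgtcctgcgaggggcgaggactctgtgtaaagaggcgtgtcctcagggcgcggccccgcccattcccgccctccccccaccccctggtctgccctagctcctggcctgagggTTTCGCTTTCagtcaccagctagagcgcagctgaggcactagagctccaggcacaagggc
Tnfrsf14 chr4:154928028-154928327 (minus strand): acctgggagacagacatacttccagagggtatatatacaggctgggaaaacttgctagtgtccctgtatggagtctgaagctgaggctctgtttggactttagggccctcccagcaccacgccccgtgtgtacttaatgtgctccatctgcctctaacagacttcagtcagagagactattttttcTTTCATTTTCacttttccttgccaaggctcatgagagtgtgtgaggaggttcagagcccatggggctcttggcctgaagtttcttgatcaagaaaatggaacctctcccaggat
Tnfrsf18 chr4:156026072-156026371 (plus strand): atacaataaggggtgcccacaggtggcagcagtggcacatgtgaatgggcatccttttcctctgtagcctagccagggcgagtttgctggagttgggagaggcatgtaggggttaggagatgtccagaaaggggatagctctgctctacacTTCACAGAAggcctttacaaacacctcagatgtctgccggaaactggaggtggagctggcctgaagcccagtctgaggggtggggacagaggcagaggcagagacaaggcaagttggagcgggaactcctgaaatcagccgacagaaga
Tnfrsf4 chr4:156013445-156013744 (plus strand): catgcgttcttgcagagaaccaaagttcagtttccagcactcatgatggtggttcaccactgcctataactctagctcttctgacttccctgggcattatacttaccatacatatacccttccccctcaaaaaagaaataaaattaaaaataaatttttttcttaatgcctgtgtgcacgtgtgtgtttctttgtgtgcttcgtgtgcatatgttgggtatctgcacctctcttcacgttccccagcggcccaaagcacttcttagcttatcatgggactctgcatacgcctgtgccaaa
Tnfrsf9 chr4:150919905-150920204 (plus strand): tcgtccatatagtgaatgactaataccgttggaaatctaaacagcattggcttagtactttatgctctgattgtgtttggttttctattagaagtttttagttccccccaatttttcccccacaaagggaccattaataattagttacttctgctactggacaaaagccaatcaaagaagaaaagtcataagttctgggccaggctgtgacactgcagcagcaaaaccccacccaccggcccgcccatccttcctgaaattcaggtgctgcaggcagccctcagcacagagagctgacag
Tnfrsf9 chr4:150927749-150928048 (plus strand): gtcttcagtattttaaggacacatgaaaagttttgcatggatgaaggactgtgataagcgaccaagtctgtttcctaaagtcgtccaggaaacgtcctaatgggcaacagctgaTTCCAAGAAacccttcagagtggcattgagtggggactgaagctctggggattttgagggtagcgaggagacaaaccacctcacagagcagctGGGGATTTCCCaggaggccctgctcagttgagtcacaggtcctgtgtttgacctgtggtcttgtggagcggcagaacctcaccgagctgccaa

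The Tnfrsf1b window holds an ISRE core that ends at the base before the start, and a GAS core that begins 181 bases before it. In Tnfrsf14 the ISRE core begins 64 bases before the start, and in Tnfrsf18 the GAS core begins 99 bases before it. The second Tnfrsf9 window holds a GAS core 136 bases before the start and 2 overlapping NF-kappa-B matches that begin 43 and 42 bases before it. No match was found in the windows of Tnfsf10 and Tnfrsf4 or in the first of Tnfrsf9, which says only that these letters are not in them. An ISRE core was also found in Tnfsf13b, beginning 16 bases before its second start. Other GAS cores were in Tnfrsf1a and Tnfrsf19, an ISRE core in Tnfrsf17 and an NF-kappa-B match in Tnfrsf8. Their differences were 0.10, 0.28, 0.04 and 0.06, none with an unadjusted limma p under 0.05. A match of some kind was held by 10 of the 21 members with a window. A match is a description of letters and not a measured site.

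Members of the superfamily that carry other symbols were set beside the 27. Of 7 other ligands 0 passed the limma test, and the median difference was 0.34. At an unadjusted limma p under 0.05, 3 of the 7 were higher, beside 4.80% of all genes. Ltb, or lymphotoxin beta, which with lymphotoxin alpha forms the ligand of Ltbr, had 10.31, 9.02 and 9.39 in alopecic and 6.40, 6.92 and 6.28 in unaffected skin. This was a difference of 3.04 (SE 0.37), larger than that of Tnfsf10, and it missed the threshold (limma adjusted p = 0.0599). Lta, lymphotoxin alpha, had 7.05, 6.32 and 5.83 against 4.60, 5.07 and 5.34, a difference of 1.39 (SE 0.36, limma adjusted p = 0.445). Eda, ectodysplasin, differed by -0.13 (SE 0.22). Of 8 other receptors 0 passed, 2 had an unadjusted p under 0.05 and the median was 0.19. Ltbr, the lymphotoxin beta receptor, differed by 0.22 (SE 0.17) and Relt by -0.08 (SE 0.16). Cd40, a receptor of antigen-presenting cells, and Cd27, a T cell costimulator, were the 2; named after their values were seen, they differed by 0.90 (SE 0.22) and 0.46 (SE 0.13). Edar, the ectodysplasin receptor, differed by 0.16 (SE 0.35).

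Ligands and receptors were also set side by side. Of 24 pairs of a ligand and a receptor listed from general knowledge and measured here, 13 joined 2 members. With 1 probe set per gene, both partners were higher at an unadjusted limma p under 0.05 in 2 of the 24 pairs. Both pairs involved Lta, with Tnfrsf1b and with Tnfrsf14. For Tnfrsf4, Tnfrsf9 and Tnfrsf14 the receptor differed by 0.59, 0.79 and 0.71, and the ligands Tnfsf4, Tnfsf9 and Tnfsf14, dim on these arrays, by -0.01, 0.38 and 0.01. For Tnfsf10 and Ltb the ligand differed by 2.49 and 3.04 and the receptors Tnfrsf10b and Ltbr by 0.12 and 0.22. Differences between the partners of a pair were not tested.

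Genes that act downstream of the receptors are read here beside all 18193 genes. Of all genes, 8839 had a higher mean in alopecic skin, and 4.80% were higher at an unadjusted limma p under 0.05. Of 13 measured TRAFs and death receptor adaptors all had a higher mean, 0 passed the limma test, 6 had an unadjusted p under 0.05, and the median difference was 0.42. The inhibitors of apoptosis Birc2 and Birc3, which TRAF complexes recruit, differed by 0.24 (SE 0.23) and 0.53 (SE 0.32). Of 13 measured NF-kappa-B subunits, inhibitors and kinases 11 had a higher mean, 0 passed, and the median was 0.30. At an unadjusted limma p under 0.05, 5 of the 13 were higher. The inhibitor Nfkbia and the kinase Ikbkb, the members with the highest mean signal, differed by 0.15 (SE 0.28) and 0.23 (SE 0.14). The largest differences, named after their values were seen, were those of the inhibitor Nfkbie at 2.03 (SE 0.29, limma adjusted p = 0.0959), Bcl3, a nuclear relative of these inhibitors, at 1.87 (SE 0.28, adjusted p = 0.11), and Nfkb2, the subunit of the noncanonical pathway, at 1.28 (SE 0.21, adjusted p = 0.134). Map3k14, the kinase that starts processing of Nfkb2, differed by 1.04 (SE 0.20). Traf3, Ripk1, Nfkb1 and Chuk were not analysed here.

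**Figure D4:**
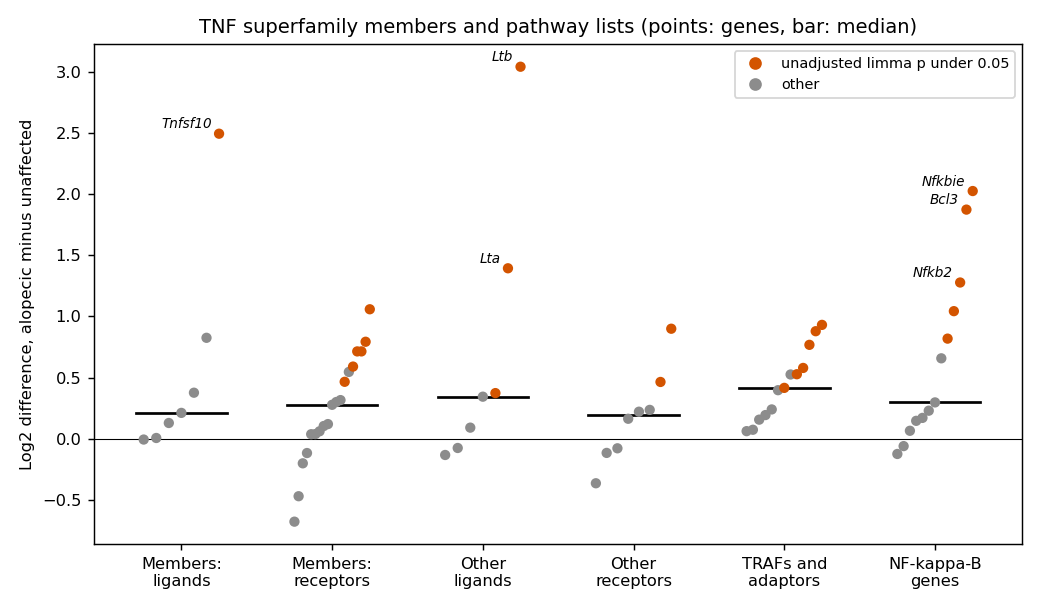
Log2 difference, alopecic minus unaffected (vertical axis), of the 7 ligand and 19 receptor members and of 4 lists of related genes; each point is a gene, orange where the unadjusted limma p was under 0.05, and bars are medians. Ltb at 3.04 and Tnfsf10 at 2.49 are the highest points, and the medians of the 6 sets lie between 0.19 and 0.42.

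T cell markers were also higher where the receptors described above were. Of 10 T cell markers 8 were higher in every alopecic than in every unaffected array, beside 6.93% of all genes. Another 1 was lower in every alopecic array, beside 6.12%. Of the 10, 0 passed the limma test, and the median difference was 1.49. At an unadjusted limma p under 0.05, 8 were higher, beside 4.80% of all genes. Named after their values were seen, Cd8a, the coreceptor of cytotoxic T cells, differed by 1.76 (SE 0.36), Cd3e, a chain of the T cell receptor complex, by 0.52 (SE 0.15) and Cd4 by -0.16 (SE 0.12). The T cell list was highest in alopecic replicate 1, at 8.002, against 7.02 and 6.92 in replicates 2 and 3. Tnfrsf1b, Tnfrsf9, Tnfrsf14 and Tnfsf10 were also highest in replicate 1. For Tnfrsf9 the alopecic arrays hardly varied (6.45, 6.42 and 6.40), and Tnfsf10 was almost level in replicates 1 and 2 (9.58 and 9.51). Tnfrsf4 and Tnfrsf18 had their highest alopecic value in replicate 2, and Tnfrsf25 in replicate 3. The part of T cell number in the values of the receptors was not tested.

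Probe sets with several symbols belong to no member. That for Tnfsfm13, Tnfsf13 and Tnfsf12 had 7.89, 6.59 and 6.76 in alopecic and 7.05, 6.87 and 6.75 in unaffected skin, that for Tnfsfm13 and Tnfsf12 had 6.70, 6.45 and 6.46 against 6.42, 6.71 and 7.05, and that for Tnfrsf22 and Tnfrsf23 had 8.29, 6.76 and 7.23 against 6.91, 6.79 and 6.89. In all 3 the groups overlapped. Tnfsf12 encodes TWEAK and Tnfsf13 encodes APRIL, and no probe set here carried either symbol alone.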

How the data were processed

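Total RNA of skin from 6 mice was labelled by a 3' IVT Express kit and measured on 1 array per mouse, per the labels' protocols. The values deposited by the authors are log2 signals of single probe sets made with RMA, per the submitters' processing notes, which name no version, and they were used as deposited. A change in RNA amount shared by all genes cannot be seen in values scaled to like array medians. Of 45101 probe sets, 34945 had 1 gene symbol in the platform annotation. For 34741 of these the gene identifier was found in the RefSeq annotation of GRCm38.p6. The RefSeq symbol was then used, whether or not it differed. Where a gene had several probe sets, the brightest on average was used, without a filter on dim signals.

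Groups were compared by the moderated, two-sided test of limma 3.58.1, run in R 4.3.3, and p-values were adjusted by Benjamini-Hochberg over all 18193 genes; the fit was tested on simulated data. Unless a sentence says unadjusted, adjusted p-values are from this fit. Standard errors for other probe sets are from the same fit over all probe sets with 1 symbol. Precision is limited by having 3 arrays in each group. The members and gene lists were chosen with earlier results of these data known. Values in every array are given for members with an unadjusted p under 0.05 or a difference of at least 0.5, and for the 2 ligands and 2 receptors with the highest mean; of each pathway list, the 2 genes with the highest mean are named where none passed, and partners of named members. The alternatives were other probe set choices, a filter on genes below the median of all gene means, and other normalizations. Array weights, other variance models, a replicate block and each array left out were the rest.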

Additional observations from a re-analysis of the deposited data

How the results depend on the processing

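Over 14 alternatives, the 12 members described in full gave 163 values, of which 156 kept their direction and stayed on the same side of the threshold, 4 came to pass it and 3 reversed. Those that came to pass were Tnfsf10, Tnfrsf9 and Tnfrsf18 with array weights and Tnfsf10 without unaffected replicate 3. Those that reversed were of Tnfrsf19, at -0.054 with the mean of all probe sets, -0.11 when alopecic replicate 2 was left out and -0.08 when unaffected replicate 2 was, with a range of -0.11 to 0.59 over the arrays left out; the cause was not tested. The number of members past the threshold was 0 in the analysis reported and 3 with array weights, and ran from 0 to 1 with an array left out. Their median difference was 0.21 and ran from 0.13 to 0.24 with an array left out. It was 0.55 when genes with a mean below the median of all gene means were left out, where 7 members remained. That cutoff lay above the array medians and also removed members such as Tnfrsf1b, with a mean of 6.72. Over all genes the count of 50 became 139 with array weights and 4 to 39 with an array left out: 33, 14 and 17 without alopecic replicates 1, 2 and 3, and 7, 4 and 39 without unaffected replicates 1, 2 and 3. With the replicate block 0 genes and 0 members passed (6 members at an unadjusted limma p under 0.05). The replicate numbers showed no sign of pairing the arrays. Deviations of same-numbered arrays from their group means correlated at -0.13, -0.20 and -0.33 across genes, and no array correlated best with its own number. Genes with large swings between arrays, such as the hair markers, weigh on these correlations, so they cannot exclude a pairing. Arrays carry no depth. Means of 15 of the 27 members lay below the array medians, where compressed signals can hide differences.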
